A study of Mus musculus with 6 samples.

Results

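The genes described here are 149 protein-coding genes that were higher in the ileum of mice with HIF-1α switched on in the intestinal epithelium and that lie outside glycolysis, transport and the other families named below. They were chosen by their measured values. A gene entered when it was protein-coding in the deposited table, averaged at least 100 normalized counts over the 6 libraries (read counts divided by a scaling factor for each library), and had all 3 overexpression libraries above all 3 control libraries. Of the 923 genes in the table, 656 were protein-coding, 454 of these reached the mean of 100 and 196 of the 454 had the groups apart in this direction. Of these 196, 47 were left out by name, which left the 149. The names covered solute carriers, pumps, ion channels, cytochrome P450 genes, glycolytic enzymes, prolyl hydroxylases, collagen hydroxylases and histone demethylases. They also covered single genes, among them well known HIF targets and a few genes of defense, stress, the cell cycle and bile acids, such as Saa3, Atf3, Ccnd1 and Fabp6.

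The libraries came from ileum RNA of 3 Hif1α LSL/LSL;VilERcre mice, labelled IECOE, and 3 Hif1α LSL/LSL littermates, labelled FLOX, on a C57BL/6 background. Both groups carried the LSL-HIF1 dPA allele, which encodes a HIF-1α without the prolines that mark it for destruction and stays silent behind a stop cassette, and both received tamoxifen. Only IECOE mice carried villin-cre-ERT2, a tamoxifen-activated Cre driven by the villin promoter of intestinal epithelial cells, so the FLOX group does not control for Cre itself. By the sample labels each group held 2 males (replicates 1 and 2) and 1 female (replicate 3), whereas the text of the study calls the mice male, and the diet and age of these mice are not given in the sources used here. The labels name the ileum and no cell fraction, and fewer cells of a type cannot be told apart from less RNA per cell.

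HIF-1 is a transcription factor made of HIF-1α and ARNT. Under normal oxygen, prolyl hydroxylases tag HIF-1α for degradation, and under low oxygen it accumulates and binds hypoxia response elements in DNA, whose core reads ACGTG or GCGTG. It is best known for raising glycolytic enzymes and glucose uptake, but it also acts on secreted signals, redox proteins, protein folding and the cell skeleton. The intestinal epithelium normally lives close to the anaerobic gut lumen, and HIF there is known for its part in barrier and mucosal defense genes.

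Because the groups being apart was itself the rule, the IECOE and FLOX values of these genes are a description and no p is given for them. In the same way, the table listed only genes with an unadjusted p under 0.05 in the authors' comparison, and differences of genes picked for their size lean large. Separation in this direction was found in 38.6% of all 923 listed genes and in 43.2% of the 454 protein-coding genes with a mean of at least 100, so within this table it is a common pattern. Means are given ± SD over 3 mice, and log2 fold changes (IECOE over FLOX, from a model of the counts) ± standard error. Values with no other unit are normalized counts.

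The 6 libraries held 1170046 to 1451142 counts over the listed genes, and the FPKM (fragments per kilobase of gene, scaled to a fixed library size) implied 18918341 to 24905343 counted fragments in each. The 149 genes took 16.2%, 17.0% and 15.5% of the listed counts in IECOE, against 14.6%, 13.4% and 12.1% in FLOX. The Hif1a row read 535, 728 and 741 in IECOE, against 741, 1063 and 1185 in FLOX. It is lower in IECOE, yet the row is the mouse gene, and no source says whether it takes up reads of the inserted allele, which makes it no test of the labels. Of the marker genes of 18 cell types, the table listed Anpep of enterocytes, which was high in all libraries (111350 to 121630 in IECOE, 127405 to 153611 in FLOX), and few of any other type.

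All 149 entered the model fit, which covered the 767 listed genes with a mean of at least 5. Their log2 fold changes ran between 0.25 in Hsp90b1 and 1.87 in Acta1, with a median of 0.48, which is 1.39-fold, and quartiles of 0.38 and 0.65. The median over all 767 fitted genes was 0.34, with 415 above 0 and 352 below. These numbers, and the 149 of 454 genes that met the rule, are the background for the gene lists below. Each list held few genes of the table, and no list was tested. A difference of 2-fold or more was present in 8 of the 149, so most of these genes differ by modest amounts. Among the 767 fitted genes it was present in 20.1% (154 genes), but the 2 sets are unlike. The 767 include genes whose mean was too low for the rule. They also include strongly higher genes left out by name, such as Slc16a3 (log2 fold change 3.75) and Pgk1 (1.60). How far the mean and the names account for this contrast was not tested. Scaling the libraries by TMM over the genes of the table instead of the deposited size factors shifted the log2 fold changes of all genes by a median of -0.14. None of the 149 then fell below 0, their median was 0.34 and 3 were at 2-fold or more, and the rule applied to counts scaled that way took 99 of the 149. Within a group the mice varied little: the median coefficient of variation over the 149 was 10.7% in IECOE and 11.6% in FLOX, a spread that the rule itself limits. IECOE replicate 3 was the lowest IECOE library for 78 of the 149 genes and replicate 2 the highest for 66, and the genes' median level relative to the FLOX mean was 0.49, 0.52 and 0.39 in IECOE replicates 1, 2 and 3 on the log2 scale.

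Many of the genes passed the rule narrowly. The lowest IECOE library was less than 1.1 times the highest FLOX library in 66 genes and at least 1.5 times in 6, with a median of 1.11. The genes just inside this edge were Sema4b (1.00), Trib1 (1.00) and Dmbt1 (1.00), and those just outside it were Nek2 (0.993), Pigr (0.995) and Sigirr (0.999). At the floor on the mean, Cfap298 (100.4), Afmid (101.8) and Lck (105) stood just inside, and Snupn (84.5), Syne3 (85.1) and Lipg (85.6) just outside. Pigr, which carries antibodies across the epithelium, was therefore not included and read 47366, 49130.5 and 45896 in IECOE, against 46142, 29454 and 30496 in FLOX.

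**Figure D1:**
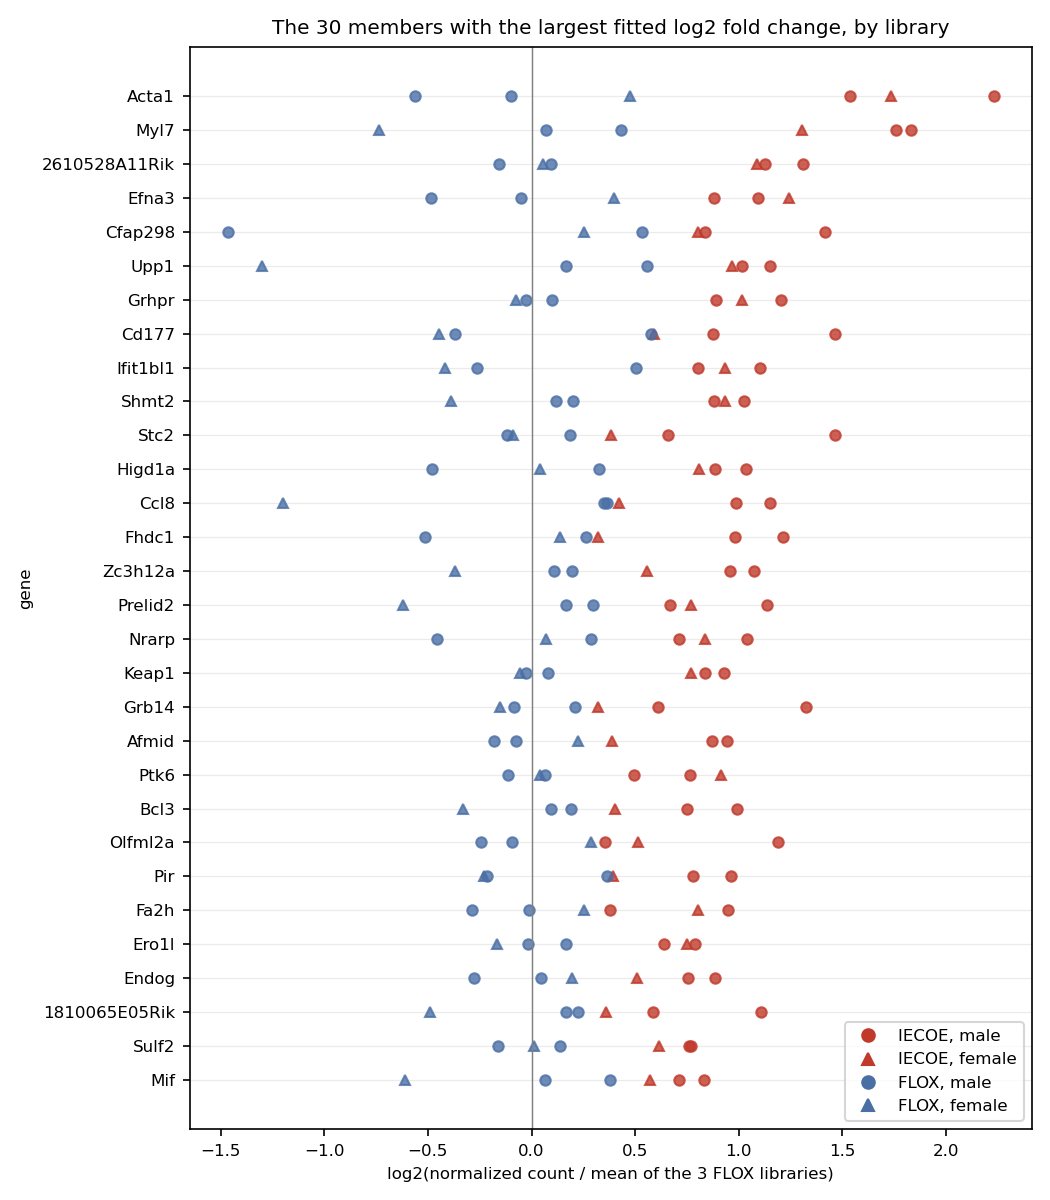
Levels in each library of the 30 genes with the largest fitted log2 fold change, as log2 of the normalized count over the mean of the FLOX libraries (horizontal axis), with IECOE in red, FLOX in blue, males as circles and females as triangles. Red and blue do not overlap in any row, as the rule required, Acta1 and Myl7 lie farthest to the right, and Cd177, Ccl8, Fhdc1 and Pir have a red and a blue point nearly touching.

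Among HIF targets outside glycolysis, 9 of the 149 genes stood in a list of 72 genes known to respond to HIF. The table held 14 of the 72, of which 13 had a higher mean in IECOE and 1 a lower, beside 415 higher and 352 lower among the 767 fitted genes. The 9 had log2 fold changes between 0.43 and 0.91 with a median of 0.52, beside 0.48 over the 149 genes and 0.34 over all fitted genes. The rule took only genes higher in IECOE, and the fitted genes include lower ones, so standing above 0.34 was built in. Stc2, the secreted glycoprotein stanniocalcin-2, read 458, 262 and 217 in IECOE, against 153, 189 and 156 in FLOX. IECOE replicate 1 stood well above the other IECOE mice, and the log2 fold change was 0.91 ± 0.29. Higd1a, a small protein of the inner mitochondrial membrane, read 1634, 1473 and 1399 in IECOE, against 573, 1002 and 821 in FLOX. Its lowest IECOE value was 1.40 times its highest FLOX value, with a log2 fold change of 0.91 ± 0.20.

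Ero1l, the oxidase that makes disulfide bonds in the endoplasmic reticulum, read 929, 1030.2 and 1002 in IECOE, against 589.7, 669 and 531 in FLOX, a log2 fold change of 0.73 ± 0.14. Mif, a cytokine that also has tautomerase activity, read 1990.2, 1833 and 1662 in IECOE, against 1171, 1452 and 733 in FLOX. The female FLOX library was the lowest, and the log2 fold change was 0.71 ± 0.22. The remaining 5 were closer to the controls. Mxi1, a partner of MAX that opposes MYC, averaged 1813 ± 337 in IECOE and 1280.4 ± 125 in FLOX. Rlf, a zinc finger protein, averaged 519 ± 91.8 in IECOE and 361 ± 38.3 in FLOX. Selenbp1, a methanethiol oxidase, averaged 2505 ± 250.5 in IECOE and 1774 ± 159.7 in FLOX. Ankzf1, which acts at stalled ribosomes, averaged 761 ± 8.56 in IECOE and 559 ± 66.7 in FLOX. Ndrg1, a stress-responsive protein of epithelial differentiation, averaged 2103 ± 154 in IECOE and 1562 ± 182 in FLOX. These 5 had log2 fold changes between 0.43 and 0.52, smaller than those of Stc2, Higd1a, Ero1l and Mif.

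Promoter sequences were read from RefSeq (GRCm38.p6), which held an entry for 116 of the 149 genes, and the 250 bases before each start were searched for ACGTG and GCGTG on both strands. The core is short and was present in 41.5% of all 27025 genes of the table. It was present in 68 of the 116 genes (58.6%), against 46 of 92 genes (50%) picked by the mirrored rule for being lower in IECOE. Of the higher genes left out by name, which hold the glycolytic HIF targets, 34 of 40 (85.0%) had it. A gene was counted when any of its promoters had the core, and the sets differ in promoters per gene. Counted by promoter, the shares were 55.0% in these genes, 45.6% in the lower genes, 75.9% in the left-out genes and 38.6% in all genes. ACGTG alone was present in 27.6% of the 116, in 21.7% of the lower genes, in 57.5% of the left-out genes and in 18.5% of all genes. Base composition moves with these shares: the median GC content was 60.8%, 56.8%, 62.4% and 52.4% and the median number of CG pairs was 14, 11, 17 and 6 in these genes, the lower genes, the left-out genes and all genes in turn. Its part in the shares was not tested.

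**Figure D2:**
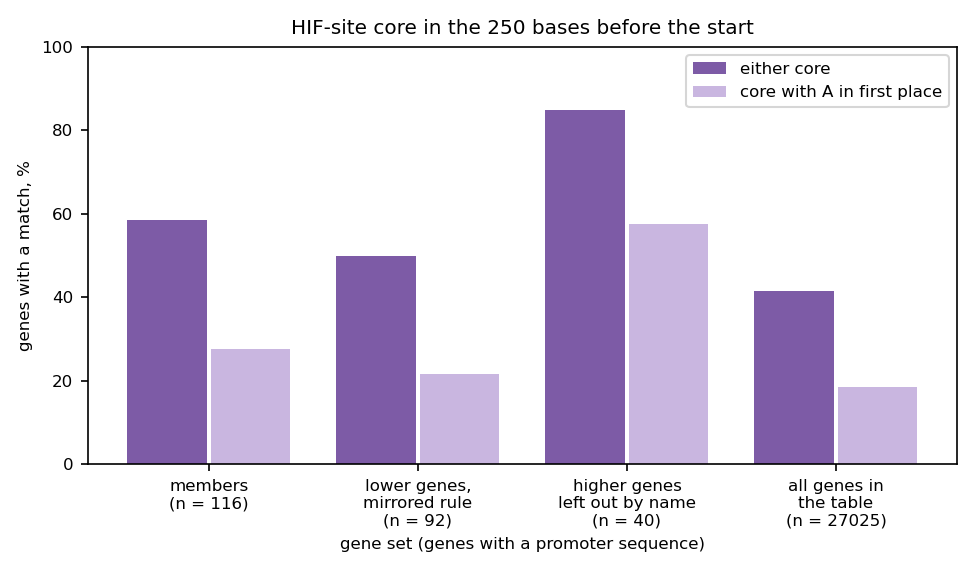
Percentage of genes (vertical axis) with a HIF core in the 250 bases before the start, for the 149 genes, the lower genes, the higher genes left out by name and all genes with a promoter sequence. Dark bars count either core and light bars the core that begins with A, and the 116 genes with a sequence stand at 58.6% and 27.6%, between all genes and the left-out genes.

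Of the 9 known HIF targets, 7 had a promoter entry and 6 of these held the core. The stretches below are shown because each holds a core in the 250 bases before a RefSeq start of a gene that is described here. In Mxi1, 2610528A11Rik, Efna3 and Upp1 that start is internal, and the stretch lies inside the span of the gene in the deposited table. Each runs 5′ to 3′ on the strand of the gene, on GRCm38.p6, outside annotated exons, and the capitals mark each whole core or its reverse complement (CACGT or CACGC). The first 3 belong to known HIF targets and the others to genes with a log2 fold change of at least 0.72. In Rlf and Nrarp the letters CACGTG hold the core on both strands, and the stretch of Selenbp1 holds 2 cores.
Rlf (chr4:121215085-121215137, minus strand): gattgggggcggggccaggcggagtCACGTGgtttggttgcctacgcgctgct
Mxi1 (chr19:53329322-53329376, plus strand): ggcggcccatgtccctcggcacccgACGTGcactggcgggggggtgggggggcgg
Selenbp1 (chr3:94932854-94932908, plus strand): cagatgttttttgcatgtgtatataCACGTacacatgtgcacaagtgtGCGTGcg
2610528A11Rik (chr14:37110236-37110290, minus strand): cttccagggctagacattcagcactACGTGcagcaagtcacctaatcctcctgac
Efna3 (chr3:89321847-89321901, minus strand): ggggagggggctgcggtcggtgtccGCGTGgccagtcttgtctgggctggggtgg
Upp1 (chr11:9118428-9118482, plus strand): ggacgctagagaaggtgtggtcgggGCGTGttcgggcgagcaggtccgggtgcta
Nrarp (chr2:25180625-25180679, plus strand): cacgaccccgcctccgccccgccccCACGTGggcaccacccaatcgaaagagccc
Keap1 (chr9:21239526-21239580, minus strand): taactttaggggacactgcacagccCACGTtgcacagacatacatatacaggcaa
Endog (chr2:30171403-30171457, plus strand): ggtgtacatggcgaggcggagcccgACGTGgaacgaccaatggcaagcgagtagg
A match is a description of the letters and not evidence that HIF-1 binds there.

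Ligands, receptors and intracellular signaling proteins formed a group of 18 genes with a median log2 fold change of 0.49, and 2 of them differed by at least 2-fold. The largest difference was in 2610528A11Rik, for which RefSeq gives the synonym Gpr15l, a secreted ligand of the receptor GPR15 made by gut epithelium. It read 908, 800.4 and 779 in IECOE, against 328, 391 and 380.1 in FLOX. Every IECOE mouse was well above every FLOX mouse, and the spread was narrow in both groups, with a log2 fold change of 1.18 ± 0.15. Efna3, a membrane-anchored ephrin-A ligand of Eph receptors, read 188, 217 and 241 in IECOE, against 73.0, 98.4 and 135 in FLOX, a log2 fold change of 1.08 ± 0.29. Its neighbour Efna1, another ephrin-A ligand 32.8 kb away on chromosome 3, had a higher level per length (53.2 FPKM in IECOE and 40.7 FPKM in FLOX, beside 4 FPKM in IECOE and 1.907 FPKM in FLOX for Efna3) and differed less, with normalized counts of 2155 ± 263 in IECOE and 1639 ± 66.1 in FLOX and a log2 fold change of 0.40 ± 0.14.

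Grb14, an adaptor that inhibits the insulin receptor, read 236, 144 and 118 in IECOE, against 88.7, 109 and 84.7 in FLOX. Replicate 1 of IECOE was the highest and the other IECOE mice were close to the FLOX range, with a log2 fold change of 0.82 ± 0.32. Ptk6, a non-receptor tyrosine kinase of differentiating gut epithelium, read 518, 625 and 695 in IECOE, against 386, 341 and 378 in FLOX, a log2 fold change of 0.73 ± 0.16. Map2k1, the kinase MEK1 of the ERK cascade, averaged 2349 ± 83.5 in IECOE and 1750.3 ± 104 in FLOX, a narrow spread around a log2 fold change of 0.42 ± 0.12. Edn3, the peptide endothelin-3, averaged 966 ± 83.3 in IECOE and 628 ± 97.5 in FLOX. Edn1, the gene of endothelin-1, was not among the 149 and lay the other way, at 62.9 ± 32.5 in IECOE and 131 ± 59.0 in FLOX with overlapping groups. In a list of 75 growth factor and kinase genes, 6 were in the table, 4 higher and 2 lower in mean, and Map2k1 and Stc2 were the ones that met the rule. The other signaling genes of the group, among them Nuak2, Trib1, Ulk3, Gnas, Sema4b and Ccng1, had log2 fold changes between 0.28 and 0.69.

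Metabolic enzymes outside glycolysis formed a group of 13 genes with a median log2 fold change of 0.44. Upp1, uridine phosphorylase, which splits uridine into uracil and a sugar phosphate, was among the most abundant of all, at 125 FPKM in IECOE and 61.0 FPKM in FLOX. Its normalized counts were 5336, 5850.5 and 5147 in IECOE, against 3884, 2955 and 1071 in FLOX. The FLOX mice ranged widely, with the female lowest, and the log2 fold change was 1.05 ± 0.36. Grhpr, which reduces glyoxylate and hydroxypyruvate, read 648, 805 and 705 in IECOE, against 343, 373 and 331 in FLOX. The lowest IECOE value was 1.74 times the highest FLOX value, and the log2 fold change was 1.04 ± 0.15.

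Shmt2, the mitochondrial serine hydroxymethyltransferase that feeds folate metabolism, read 1513, 1672 and 1569 in IECOE, against 892, 944 and 628 in FLOX, a log2 fold change of 0.95 ± 0.17. Afmid, which hydrolyses formylkynurenine in tryptophan breakdown, read 138, 146 and 99.1 in IECOE, against 72.0, 66.8 and 88.5 in FLOX, a log2 fold change of 0.75 ± 0.30 at the edge of the floor on the mean. Of its 150-base transcript windows 58.1% also occur in Gm20708, so its counts are uncertain. Got1, the cytosolic aspartate aminotransferase of the malate-aspartate shuttle, averaged 1435 ± 159 in IECOE and 1121 ± 108 in FLOX. Got1, Shmt2 and Upp1 were the 3 that met the rule among 4 table genes of a list of 56 amino acid, folate and nucleotide genes. All 4 had a higher mean in IECOE, beside 415 of the 767 fitted genes. Xpnpep1, a peptidase that removes residues before proline, was among the 5 genes with the highest mean count, 6966 ± 553 in IECOE and 5157 ± 455 in FLOX. The other 7 (Bco2, Dglucy, Ddah1, Hdhd5, Mocs1, Pgp and Sccpdh) had log2 fold changes between 0.34 and 0.64.

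Mitochondrial and redox proteins had the highest median of the groups, 0.65 over 10 genes, with none at 2-fold. Keap1, the adaptor that sends the antioxidant factor NRF2 to degradation, read 1761, 1651 and 1577 in IECOE, against 908, 978 and 891 in FLOX. The values were tight in both groups, and the log2 fold change was 0.85 ± 0.13. Prelid2, of a family of mitochondrial lipid transfer proteins, read 455, 329 and 353 in IECOE, against 254, 232 and 135 in FLOX, a log2 fold change of 0.87 ± 0.26. Pir, pirin, an iron-binding nuclear protein, read 163, 185 and 125 in IECOE, against 81.8, 122 and 80.9 in FLOX, with 1 IECOE and 1 FLOX library nearly level and a log2 fold change of 0.73 ± 0.30. Endog, the mitochondrial endonuclease G, read 413, 378 and 318 in IECOE, against 184, 231 and 256 in FLOX, a log2 fold change of 0.72 ± 0.20. Of the exonic bases of Endog, 35.7% overlap Spout1 on the opposite strand, and no source says whether the counting took the strand into account. The remaining members, Fam210a, Gfer, Mrpl14, Pet100 and Selenbp1, lay between 0.38 and 0.58. In a list of 42 genes of respiration and mitochondrial translation, Higd1a was the 1 gene in the table.

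Immune and interferon-linked genes numbered 13, with a median log2 fold change of 0.60. Cd177, a surface glycoprotein best known on neutrophils, read 690.2, 459 and 378 in IECOE, against 374, 194 and 183 in FLOX. The lowest IECOE value and the highest FLOX value were nearly equal, and the log2 fold change was 1.03 ± 0.31. Ifit1bl1, of the interferon-induced IFIT family, read 508, 625 and 556 in IECOE, against 413, 242 and 218 in FLOX, a log2 fold change of 0.95 ± 0.24. Its near neighbour on chromosome 19, Ifit1bl2, was listed and lay the other way, at 1325, 1102 and 1039.7 in IECOE, against 1573, 1608 and 1855 in FLOX. Zc3h12a, the ribonuclease regnase-1 that destroys inflammatory messenger RNAs, read 1443, 1566 and 1095 in IECOE, against 853, 803 and 577 in FLOX, a log2 fold change of 0.88 ± 0.19.

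Ccl8, a chemokine for monocytes and lymphocytes, read 168, 150.1 and 101 in IECOE, against 97.6, 96.6 and 32.9 in FLOX, a log2 fold change of 0.89 ± 0.42. Lck, the Src-family kinase of T cells, read 158, 103 and 131 in IECOE, against 98.6, 82.6 and 59.3 in FLOX, a log2 fold change of 0.70 ± 0.32. Of 8 T and NK cell markers Klrb1 was the 1 in the table, at 163, 70.2 and 103 in IECOE, against 16.8, 33.4 and 39.5 in FLOX, and its part in the Lck, Gimap9 and Ccl8 values was not tested. The endothelial marker Kdr, the 1 of 4 in the table, read 966, 517 and 749.5 in IECOE, against 480.2, 403 and 544 in FLOX beside Cd93, a glycoprotein of endothelial and myeloid cells, at 425 ± 47.2 in IECOE and 296 ± 37.7 in FLOX. Dmbt1, a secreted scavenger receptor of mucosal surfaces, was also among the 5 with the highest mean count and read 16535, 22077 and 16848 in IECOE, against 13885, 16464 and 9977 in FLOX, with the groups barely apart. Dtx3l and Parp9, whose proteins act as a pair in the interferon response and whose genes lie head to head and overlap on chromosome 16, averaged 1076 ± 83.6 in IECOE and 709 ± 139.8 in FLOX for Dtx3l and 1235 ± 93.7 in IECOE and 902 ± 47.2 in FLOX for Parp9. Of 55 genes in the list of antimicrobial and interferon genes, 6 were in the table, 3 higher and 3 lower in mean, and none met the rule.

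Cytoskeletal and muscle proteins held both the largest log2 fold changes and the gene with the highest FPKM. The median log2 fold change of the 17 genes was 0.42, and 3 differed by at least 2-fold. Acta1, the actin of skeletal muscle, read 950.2, 587 and 675 in IECOE, against 189, 137 and 281 in FLOX. The lowest IECOE mouse was 2.09 times above the highest FLOX mouse, the widest gap among the 149 genes, and the log2 fold change was 1.87 ± 0.28. Acta1 was the 1 of 6 skeletal muscle markers in the table, and none of 6 smooth muscle markers was listed. Myl7, the regulatory light chain of atrial myosin, read 302, 317 and 220.3 in IECOE, against 93.7, 120.4 and 53.6 in FLOX, a log2 fold change of 1.65 ± 0.32.

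Cfap298, a protein needed for motile cilia, read 117, 175 and 114 in IECOE, against 94.7, 23.7 and 78.1 in FLOX. FLOX replicate 2 was far below the others, the standard error was the largest of the 149, and the log2 fold change was 1.05 ± 0.47. Of its exonic bases 53.6% overlap genes on the opposite strand. Fhdc1, an actin-nucleating formin, read 489, 575 and 310.1 in IECOE, against 174, 298 and 273 in FLOX, with the female IECOE library close to the FLOX range and a log2 fold change of 0.88 ± 0.27. Actg1, the cytoplasmic gamma-actin of most cells, read 24001, 27128 and 23416 in IECOE, against 22743, 19725 and 18150.2 in FLOX, a log2 fold change of 0.30 ± 0.15. Actg1, Hsp90b1, Dmbt1 and Xpnpep1 were among the 5 genes of the 149 with the highest mean counts. Tpm4, a tropomyosin, averaged 2625 ± 162 in IECOE and 2009 ± 155 in FLOX. Myo5b, the motor that carries vesicles to the apical membrane of enterocytes, averaged 5147 ± 99.8 in IECOE and 4157 ± 270.5 in FLOX. Actg1, Tpm4, Myo5b and Acta1 were among the 5 genes that met the rule of 7 table genes in a list of 63 actin and muscle genes. All 7 had a higher mean in IECOE, beside 415 of the 767 fitted genes. The log2 fold changes of the other 10 of these 17 genes, with Lmna, Llgl2 and Kif22 among them, lay between 0.27 and 0.65.

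The secretory pathway, glycosylation and membrane traffic accounted for 18 genes with a median log2 fold change of 0.41. All 3 table genes from a list of 34 folding genes of the endoplasmic reticulum met the rule, beside 149 of the 454 listed protein-coding genes with a mean of at least 100. Besides Ero1l these were Hsp90b1, the chaperone GRP94, and Manf, a secreted stress protein. Hsp90b1 read 7594, 7564 and 7427 in IECOE, against 6817, 6286 and 5838 in FLOX and had the smallest log2 fold change of the 149, 0.25 ± 0.13. Manf averaged 1931 ± 94.1 in IECOE and 1567 ± 188 in FLOX, a log2 fold change of 0.30 ± 0.14. Enzymes that act on heparan sulfate were present as well. Sulf2, which removes sulfates from heparan sulfate outside the cell, read 1679.7, 1665 and 1506 in IECOE, against 881, 1082 and 992 in FLOX, a log2 fold change of 0.72 ± 0.14. Hs6st1, which adds such sulfates, averaged 1372 ± 204 in IECOE and 1086 ± 51.3 in FLOX, and Hpse, heparanase, which cuts the chains, averaged 438 ± 40.6 in IECOE and 293 ± 44.0 in FLOX.

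For mucin-type glycans, C1galt1, which builds the core of O-glycans, averaged 1327 ± 118 in IECOE and 1053 ± 98.1 in FLOX, and the sulfotransferase Chst4 averaged 434 ± 57.9 in IECOE and 317 ± 18.5 in FLOX. They were the 2 that met the rule among 5 table genes of a list of 53 mucus and glycosylation genes, of which 3 were higher and 2 lower in mean. None of the 7 goblet cell markers was in the table. The other traffic and glycosylation genes, including Tmed9, Tram2, Alg12, Rab15, Exoc8, Tex264 and Ap5b1, had log2 fold changes between 0.32 and 0.62.

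The group of lipid and sterol enzymes had the lowest median of the groups, 0.39 over 13 genes. Pex6 (log2 fold change 0.27) and the apolipoprotein L genes were also placed in it, though they are not such enzymes. Fa2h, which hydroxylates fatty acids of sphingolipids, read 564, 380.0 and 511 in IECOE, against 239.6, 289.9 and 348 in FLOX, a log2 fold change of 0.73 ± 0.21. Scd2, a stearoyl-CoA desaturase, read 6068, 7670.4 and 7767 in IECOE, against 5702, 5002 and 3686 in FLOX, a log2 fold change of 0.58 ± 0.18. Sterol synthesis was represented by Pmvk, Sqle and Lss, which act in that order in the pathway. Pmvk, phosphomevalonate kinase, averaged 724 ± 72.6 in IECOE and 551 ± 68.7 in FLOX. Sqle, squalene epoxidase, averaged 3383 ± 199 in IECOE and 2790.0 ± 222 in FLOX. Lss, lanosterol synthase, averaged 1011 ± 61.5 in IECOE and 820.1 ± 49.2 in FLOX. Their log2 fold changes were 0.39 ± 0.16, 0.28 ± 0.13 and 0.30 ± 0.13, all below the median of the 149. Of the 75 genes of a lipid and sterol list, 5 were in the table, and Lss, Scd2 and Sqle met the rule. All 5 had a higher mean in IECOE, beside 415 of the 767 fitted genes. Phospholipid enzymes (Agpat5, Lpcat1, Pla2g5 and Pla2g15) lay between 0.38 and 0.69, and the apolipoprotein L genes Apol7a and Apol10a, 77.9 kb apart on chromosome 15, at 0.38 and 0.56.

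Transcription, chromatin and nuclear regulators numbered 17, with a median log2 fold change of 0.51. Nrarp, an ankyrin repeat protein that dampens Notch signaling and is itself a Notch target, read 199, 250.1 and 218 in IECOE, against 149, 88.7 and 128 in FLOX, a log2 fold change of 0.87 ± 0.26. Of its exonic bases 79.4% overlap Gm38287 on the opposite strand. Bcl3, an atypical IκB that binds NF-κB in the nucleus, read 1016, 1199 and 797 in IECOE, against 688, 644 and 479.9 in FLOX, a log2 fold change of 0.73 ± 0.19. Fos, an immediate early gene, read 1285, 1452 and 1199 in IECOE, against 1040.3, 809 and 689 in FLOX, a log2 fold change of 0.63 ± 0.17. Klf10, a TGF-β-induced repressor, averaged 787 ± 61.2 in IECOE and 519 ± 44.6 in FLOX, and Elf3, an ETS factor of epithelial cells, averaged 4943 ± 480.3 in IECOE and 3947 ± 459 in FLOX. In a list of 79 transcription factor and immediate early genes, 5 were in the table, and Elf3, Fos, Klf10 and Mxi1 met the rule. All 5 were higher in mean, beside 415 of the 767 fitted genes. Arnt2, a paralog of the HIF-1α partner ARNT that is mainly known from neurons and kidney, averaged 132 ± 4.86 in IECOE and 80.7 ± 27.5 in FLOX.

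RNA and DNA handling (8 genes) and the ubiquitin pathway (6 genes) had medians of 0.44 and 0.46. Rpl22l1, a paralog of a ribosomal protein, averaged 623 ± 61.0 in IECOE and 464 ± 95.3 in FLOX, and Tra2a, a splicing regulator, averaged 1189 ± 78.9 in IECOE and 915 ± 72.1 in FLOX. They were the only table genes from a list of 36 genes of RNA processing and translation. Alkbh5, which removes methyl groups from adenosines in RNA, averaged 2445 ± 456 in IECOE and 1552 ± 285 in FLOX. A further 16 genes were given no role here, with log2 fold changes between 0.31 and 0.73. Of these, Olfml2a read 192, 107 and 120.1 in IECOE, against 78.9, 71.2 and 103 in FLOX, and 1810065E05Rik, abundant at 97.3 FPKM in IECOE and 59.5 FPKM in FLOX, read 2614, 1818 and 1554 in IECOE, against 1359.8, 1414 and 864 in FLOX, a log2 fold change of 0.72 ± 0.23.

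**Figure D3:**
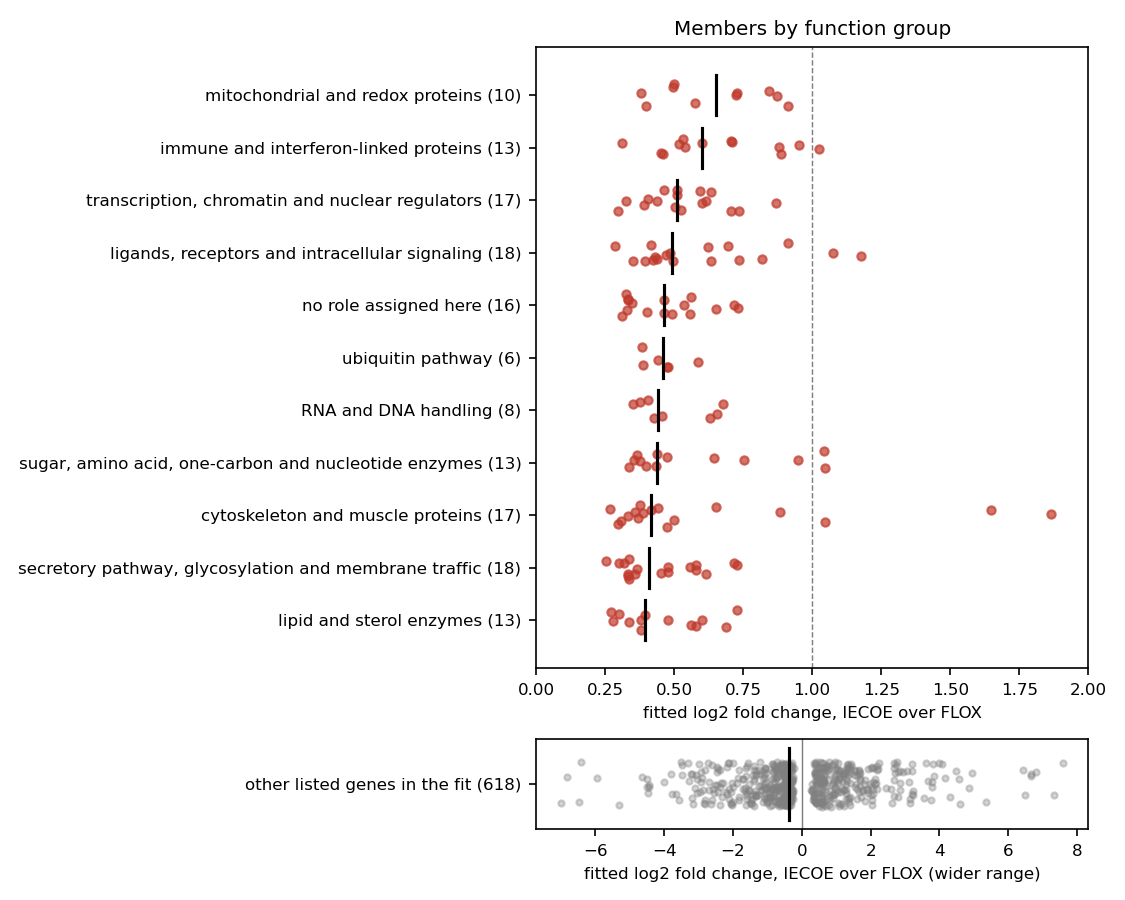
Fitted log2 fold change, IECOE over FLOX (horizontal axis), of each gene by function group, with the number of genes in brackets, black bars for medians and a dashed line at 2-fold. The lower panel, on a wider range, shows the other 618 listed genes of the fit. Group medians lie between 0.39 and 0.65, and 8 genes pass the dashed line.

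Levels per length spread widely. The mean FPKM of the 149 genes ran from 0.775 to 422 in IECOE and from 0.478 to 345 in FLOX, with medians of 10.96 and 7.60. Actg1 led with 422 FPKM in IECOE and 345 FPKM in FLOX. Upp1 came next in IECOE, followed by Dmbt1 with 118 FPKM in IECOE and 86.6 FPKM in FLOX, Mif with 111 FPKM in IECOE and 68.3 FPKM in FLOX and Elf3 with 101 FPKM in IECOE and 80.9 FPKM in FLOX. By counts 52 genes averaged at least 1000 and 32 fewer than 300. Of the 8 genes at 2-fold or more, Upp1 was the 1 among these 5.

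**Figure D4:**
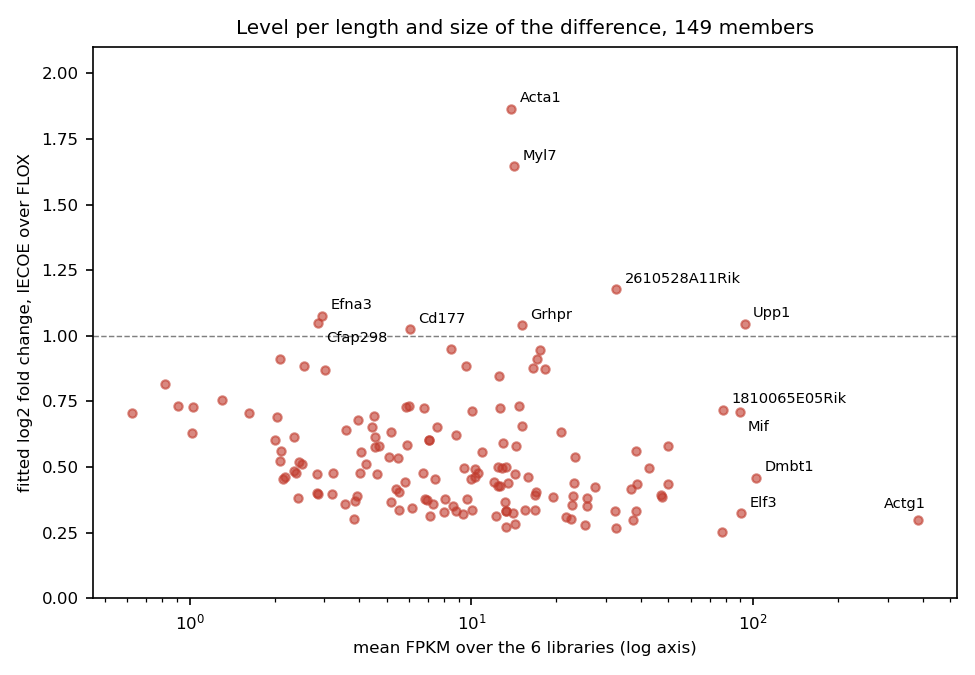
Mean FPKM over the 6 libraries (horizontal log axis) against the fitted log2 fold change, IECOE over FLOX (vertical axis), of the 149 genes, with a dashed line at 2-fold and names for the largest differences and levels. Genes above 2-fold range from Efna3 and Cfap298 at low levels to Upp1, and Actg1 stands alone on the right with a log2 fold change of 0.30.

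Sex is the 1 labelled factor that the rule did not use, and it was tested with genotype in the model (edgeR quasi-likelihood test, adjusted over the 767 fitted genes, 4 males and 2 females). None of the 149 genes passed, and none of the 767 did (0.0%). At an unadjusted p under 0.05 there were 11 of the 149 and 80 of the 767. DESeq2 called 1 of the 149, Zc3h12a, and 9 of the 767 (1.17%). The rule bounds the spread inside each group, so sex differences lean small in these genes. In females 98 of the 149 genes were fitted lower and 51 higher, with a median of -0.07, beside 398 lower and 369 higher among the 767 with a median of -0.02. Zc3h12a had the smallest unadjusted p of the 149, 0.00356, and shared the smallest adjusted p, 0.36 in edgeR, with Bcl3, 1810065E05Rik and Pgp (female minus male log2 difference of Zc3h12a -0.49 ± 0.12): the female was lower than both males in IECOE (1095 against 1443 and 1566) and in FLOX (577 against 853 and 803). The same order in both groups held for Bcl3, Ccl8, Pgp and 1810065E05Rik, with log2 differences of -0.47 ± 0.13, -1.06 ± 0.34, -0.37 ± 0.11 and -0.60 ± 0.16.

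Whether the genotype difference depended on sex was tested by an interaction term. None of the 149 genes and none of the 767 passed in edgeR (0.0%), with 2 of the 149 and 16 of the 767 at an unadjusted p under 0.05, and with 1 female in each group the test has few degrees of freedom. Upp1 had the smallest unadjusted p of the 149, 0.00148 (adjusted p = 0.30, edgeR), with an interaction of 1.56 ± 0.31 on the log2 scale. The female had 0.92 times the mean of the males in IECOE and 0.313 times in FLOX. DESeq2 called Upp1 (adjusted p = 0.00283) and 4 of the 767 genes in all (0.522%).

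**Figure D5:**
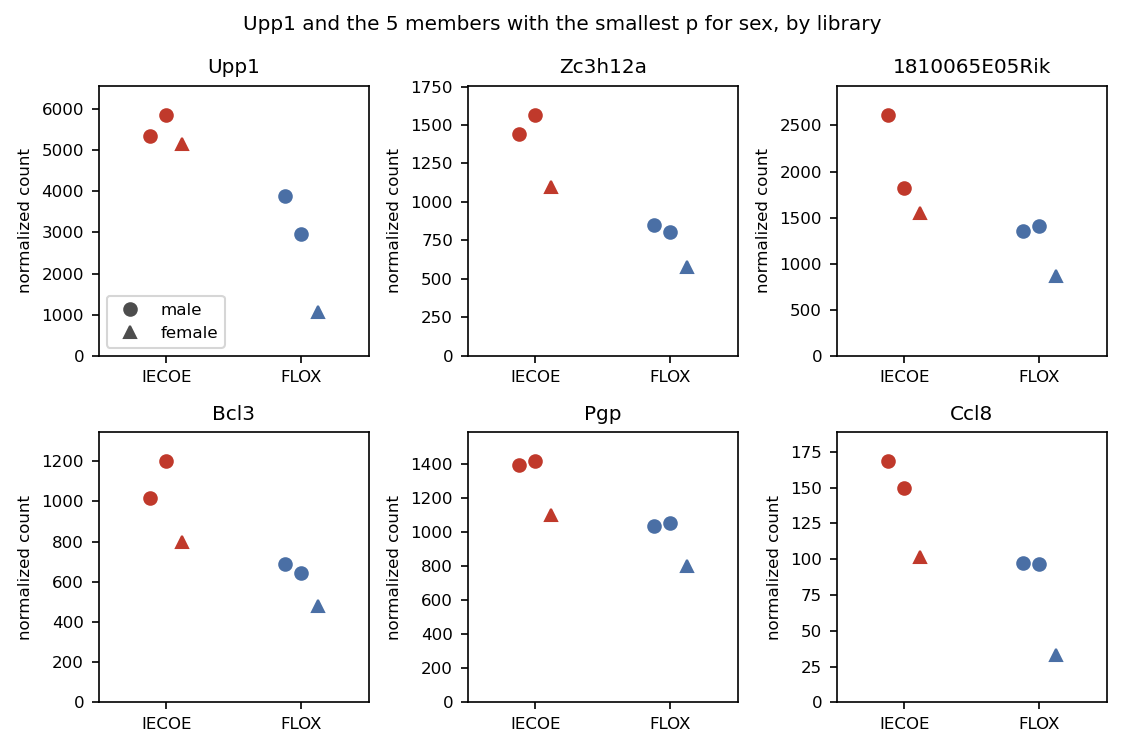
Normalized counts by library (vertical axes, from 0) of Upp1 and of the 5 genes with the smallest p for sex, with IECOE on the left in red, FLOX on the right in blue, males as circles and females as triangles. The female is the lowest library of its group in every panel, and for Upp1 the female FLOX library lies far below the males while the IECOE libraries lie close together.

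The 149 genes lay on 20 chromosomes, with the most on chromosome 11 (16 genes), chromosome 8 (14) and chromosome 2 (13), where the table listed 40, 32 and 31 protein-coding genes with a mean of at least 100. Next to each other within 200000 bases were 11 pairs, among them Cblc and Bcl3 (11.7 kb apart on chromosome 7), Ptk6 and Helz2 (24.8 kb apart on chromosome 2) and the ephrin and apolipoprotein L pairs named above. The median gene length was 3689 bases, beside 3792 for all listed protein-coding genes with a mean of at least 100.

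Counts of some of the genes could include reads of others. In 9 genes more than 10% of 150-base transcript windows also occur in another gene, and in 28 more than 10% of exonic bases overlap another gene, 34 genes in all. The largest shares of windows were in AC133488.1 (92.9%, with Sept5 and Gp1bb), Hmga1b (69.5%, with Hmga1), Gm6793 (58.4%, with Hnrnpa3), Afmid (58.1%, with Gm20708), Sssca1 (51.4%, with another gene entry of the same name) and Actg1 (43.5%, with Gm12715 and Gm8399), and for Mif the share was 14.2%. Among the 28 with exonic overlap were Nrarp, Cfap298 and Endog, as given above. Others described with values were Higd1a (22.5%), Hsp90b1 (15.7%), Efna3 (14.1%), Keap1 (10.9%) and Ankzf1 (10.7%). The values of all these genes are uncertain to that extent.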

How the data were processed

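Polyadenylated ileum RNA of 3 IECOE and 3 FLOX mice was sequenced. The authors aligned reads to GRCm38 with HISAT2 (2.0.5, from the submitters' processing notes) and used featureCounts to assign fragments to genes. The deposited counts are whole and not scaled. For the deposited normalized signal, here called normalized counts, the authors scaled each library by its DESeq2 size factor. The authors also gave FPKM, which corrects for gene length and library total. The table holds 923 genes, each with an unadjusted p under 0.05 in the authors' comparison, and its columns of fold changes, p-values and group means were not used. No source says whether the strand was used in counting.

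The 767 genes whose normalized counts averaged 5 or more were fitted with edgeR (4.0.16, R 4.3.3) with the deposited size factors as offsets. TMM need not hold in genes selected by p. Fold changes came from a fit without covariates. Sex and its interaction with genotype were tested by the quasi-likelihood test with Benjamini-Hochberg adjustment over all fitted genes, threshold 0.05. The steps were tested on simulated data with sex differences of 2-fold or more and no interaction. Those data cannot show whether smaller sex differences or an interaction would be found. DESeq2 (1.42.0) was an alternative. Each library was taken as 1 mouse, with 3 per group, so no exact permutation test can give a p below 0.1.

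The 149 genes, the 20 gene lists and the marker lists were chosen with earlier results of these data known, and the function groups were assigned from gene names. Genes named with values were the 30 with the largest log2 fold change, those in a list with at least 2 of the 149, the 5 with the highest mean, any that passed a sex or interaction test (at most 10) and the 3 on each side of each threshold, of which 1 gene is not reported here. Others named, such as Edn3, Arnt2, Hs6st1, Hpse, Alkbh5, Dtx3l, Cd93, Efna1, Pmvk and the relatives outside the 149, were chosen after their values were seen. Shared reads were assessed with GENCODE M21 transcripts and exons.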

Additional observations from a re-analysis of the deposited data

How the results depend on the processing

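The number of genes that met the rule was 149. It stayed within 1.5 times of that under a floor of 50 (162), a floor of 200 (128), no floor (212), separation by FPKM (145, of which 144 were the same genes), males only (199) and with 1 library left out (153 to 187). Leaving libraries out loosens the demand that the groups lie apart, so those counts lean upward by construction and do not test how stable the set is. The number was 99 with counts scaled by TMM and 83 when the lowest IECOE library had to reach 1.1 times the highest FLOX library. The median log2 fold change of the 149 genes, 0.48, was 0.34 under TMM, 0.51 in males only and 0.46 to 0.52 with 1 library left out. The number at 2-fold or more, 8, was 3 under TMM, 10 in males only and 6 to 12 with 1 library left out. No gene of the 149 changed sign under any alternative. With the deposited size factors the rule left almost no room for such a change, so only the rescaled fits could have shown one. For 36 of them TMM moved the value by more than its standard error, by a shift that all genes shared. With DESeq2, 1 gene differed between the sexes and 1 had a genotype difference that depended on sex, against 0 in edgeR under TMM, without the filter and, for sex, with each library left out.

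Replicate numbers are shared by the groups, but the deviations of same-numbered mice correlated at 0.06, 0.04 and 0.09 over the 767 genes, so the numbers were not taken as pairs. Over the 149 genes the correlations were -0.05, -0.05 and 0.24 for replicates 1, 2 and 3, and replicate 3 is the female of each group. With a replicate block the median log2 fold change was 0.48 and 9 genes were at 2-fold or more, and with sex as a covariate these were 0.48 and 8.

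Depth and number of mice limit the values most at the floor on the mean, where Cfap298 and Afmid lie, and with 1 female per group a sex difference of a single gene rests on few mice. The table holds genes selected by p, so genes that did not differ, and the shares of all expressed genes, were not analysed here.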
